A study of Homo sapiens with 8 samples.

Results

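Translation efficiency (TE) was described in wild-type (WT) HEK293T cells alone, a human embryonic kidney line. The cells were plated the day before harvest, and the study states no treatment of them. The genes kept were those with at least 10 counts in each of the 4 WT libraries, of which 2 were RNA-Seq and 2 were Ribo-Seq libraries, and 9835 of the 10105 genes of the count table met this. The 4 libraries of XRN1-null cells, which lack a 5′-3′ exonuclease of mRNA decay, were not used in any value here. Of 8 markers expected in HEK293T cells, 6 were in the table (VIM, KRT8, KRT18, CDH2, NEFM and SIX2), and PAX2 and LHX1 were not. Of 9 markers of blood, liver, muscle and fibroblasts only COL1A1 was, at 13.7 and 15.0 CPM (counts scaled to a library total of 1e+06) in the RNA-Seq libraries. Genes under the cutoff are not in the table, so a missing marker has no measured level.

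In ribosome profiling, cells are lysed, RNA outside the ribosome is digested, and the ribosome-protected fragments (RPFs) are sequenced, so that the reads of a gene reflect how many ribosomes sat on its mRNA. The RPF level divided by the mRNA level is taken as TE. Much of the control of TE acts at initiation, where the small subunit scans the 5′ leader for a start codon: upstream ATGs can capture it, and folded, GC-rich leaders can slow it. Special sets of mRNAs carry further elements, such as the pyrimidine-rich 5′ end of the mRNAs for ribosomal proteins (the TOP motif) and the iron-responsive element of ferritin mRNAs.

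The depth of the assays differed. The RNA-Seq libraries held 35820660 and 33757487 counts and the Ribo-Seq libraries 1921641 and 4399542, so the median gene had 1850 and 1729 RNA-Seq counts but 74 and 167 RPFs. Of the 270 genes not kept, 268 were under 10 counts in a Ribo-Seq library. TE was calculated for each replicate number as the log2 of the RPF CPM over the mRNA CPM, and the value of a gene is the mean of replicates 1 and 2. A log2 TE of 0 therefore means equal shares of both assays' counts. The labels do not state whether RNA and RPFs of the same number came from 1 culture, and p-values measure only the spread between these samples.

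TE ranged widely over the genes and was alike in both replicates. The median log2 TE was -0.26 (-0.27 and -0.25 in replicates 1 and 2), the quartiles were -0.85 and 0.26, and the 5th and 95th percentiles were 7.23-fold apart. Across the 9835 genes, which share the same libraries and are no independent replicates, the TE of replicate 1 and replicate 2 had a Pearson correlation of 0.947 and a Spearman correlation of 0.922. The median SD between replicates was 0.14 on the log2 scale, against an SD of 1.01 over genes. On the same side of the median in both replicates were 88.3% of the genes. In the scatter of the replicates, most replication-dependent histone genes stood far above most other genes, with SHF and CTC1 among them.

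**Figure D1:**
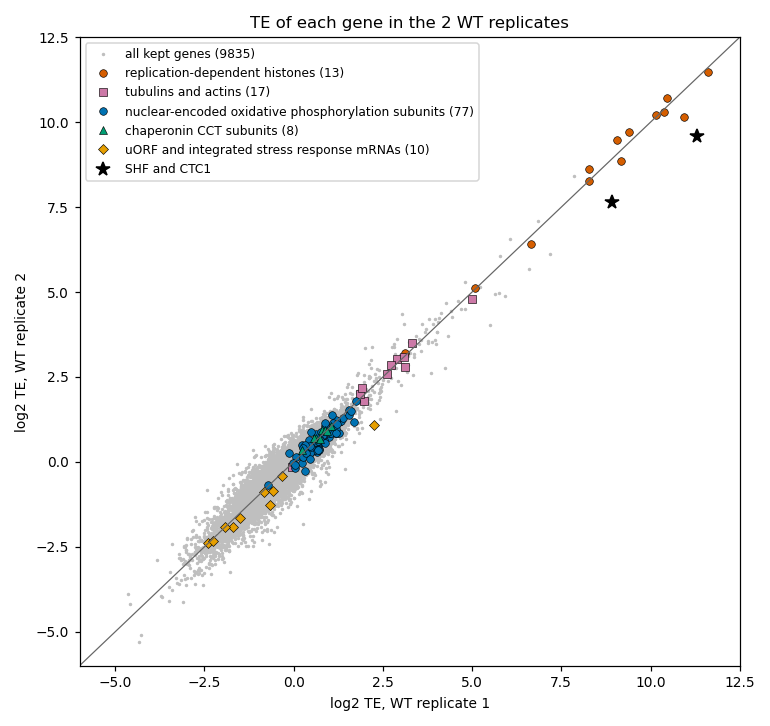
Log2 TE (RPF CPM over mRNA CPM) of each of the 9835 genes in replicate 1 (horizontal axis) and replicate 2 (vertical axis), with the line of equal values. Most replication-dependent histone genes lie at the upper right, and the stars mark SHF and CTC1, which lie below the line at the upper right. Chaperonin (CCT) and oxidative phosphorylation genes lie above most other genes while mRNAs with upstream open reading frames lie mostly in the lower part.

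With libraries scaled by their totals, the quasi-likelihood test of edgeR, with p-values adjusted by Benjamini and Hochberg's method, at a false discovery rate (FDR) under 0.005, called 1178 genes (12%) with RPFs above mRNA and 3196 genes (32.5%) below. This split follows from the scaling, since 0 is set by the totals. When the same fit was centred on the median gene, 2053 genes (20.9%) were above and 2219 (22.6%) below. Counts of members are therefore given for both scalings, totals first and median gene second, and the medians of gene groups are given relative to the median of all kept genes. Values per coding length are relative to the median of all kept genes on that same scale.

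Of 39 groups of genes, 38 had kept members (the mitochondrially encoded genes were not in the table), and the medians of 26 groups were above and those of 12 below the median gene. The highest medians belonged to replication-dependent histones, tubulins and actins, pseudogenes, the CCT chaperonin, oxidative phosphorylation and the proteasome. The lowest belonged to mRNAs with regulatory upstream open reading frames, polyamine metabolism, homeobox, SOX, FOX and KLF transcription factors, selenoproteins and chromatin modifiers. The replicates differed little for most groups in the plot of medians by group.

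**Figure D2:**
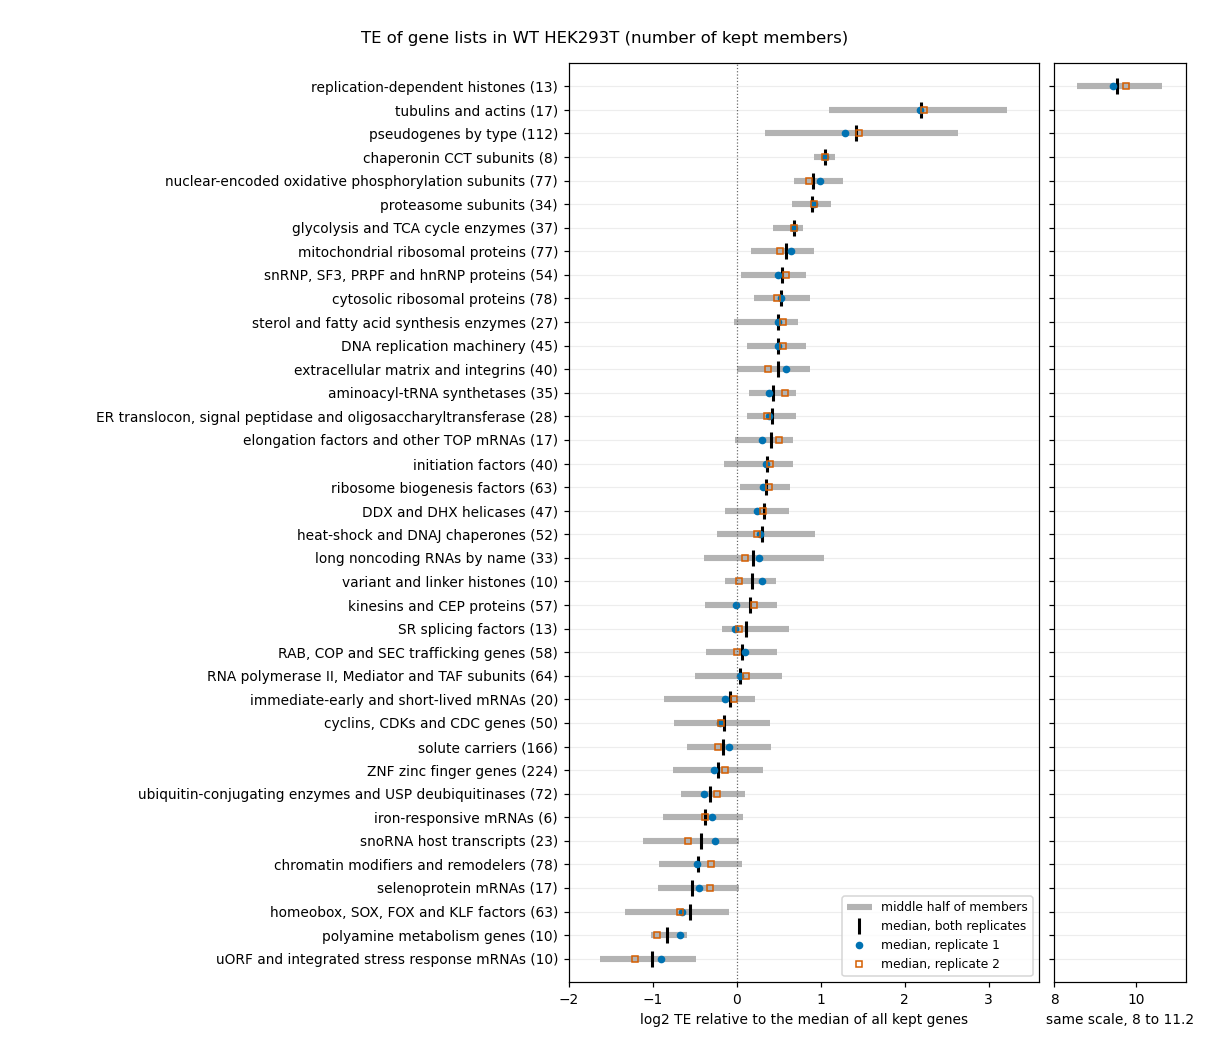
Median log2 TE of 38 gene groups relative to the median of all 9835 kept genes (horizontal axis), 1 row a group with its number of kept genes. Black ticks are medians over both replicates, grey bars the range between the quartiles of the members, blue circles and orange open squares the medians in replicates 1 and 2, and histones, at 9.54, have their own panel to the right.

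High TE was shared by the machinery of respiration. Of the 77 kept nuclear-encoded genes of oxidative phosphorylation, which build the respiratory chain and ATP synthase, 76 lay above the median gene, and their median was 0.90 higher on the log2 scale (0.99 and 0.86 in the replicates), a 1.87-fold higher TE. RPFs were above mRNA for 43 of them and below for 1 by library totals, and 62 were above and 0 below relative to the median gene. These genes took 1.42% and 1.36% of the RNA-Seq counts and 2.41% and 2.17% of the RPFs.

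The highest of these was NDUFB6, a subunit of complex I, with 85 and 80.9 CPM of mRNA and 287 and 280 CPM of RPFs (log2 TE of 1.76 and 1.79, FDR = 1.59e-06, edgeR). Both RPF libraries were far above both RNA libraries. The lowest was ATP5SL, with 65.3 and 64.7 CPM of mRNA against 40.1 and 40.0 CPM of RPFs (log2 TE of -0.70 and -0.69, FDR = 0.000768, edgeR), where the order of the libraries was the opposite. ATP5SL did not pass without RNA-Seq replicate 1 (FDR = 0.00883, edgeR) or 2 (FDR = 0.00719, edgeR). NDUFC2 at 1.55 and COX7B at 1.54, subunits of complexes I and IV, were chosen after their values were seen.

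Mitochondrial ribosomal proteins, which translate the mRNAs of the organelle, had a median 0.59 above the median gene (0.65 and 0.52), with 21 of 77 genes above and 2 below by totals and 40 above and 1 below relative to the median gene. Their highest member was MRPS28 at a log2 TE of 1.29 and their lowest MRPS25 at -0.88. Enzymes of glycolysis and the TCA cycle had a median 0.68 above the median gene (0.69 and 0.68), with 33 of 37 over it. By totals 7 were called above and 0 below, and relative to the median gene 23 above and 0 below. ALDOC, a brain-type aldolase, was highest at 1.62, and PFKL, the liver-type phosphofructokinase, was lowest at -0.39 (FDR = 0.0399, edgeR), which did not pass. Per coding length the median of these enzymes was 0.41.

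The proteasome, which degrades ubiquitinated proteins, and CCT, the chaperonin that folds actin and tubulin, also had high TE. Of the 34 kept proteasome subunits 33 lay above the median gene (median 0.90 higher, 0.92 in each replicate), 21 were called above and 1 below by totals, and 26 above and 1 below relative to the median gene. PSMB3 was highest, with 133 and 137 CPM of mRNA and 456 and 405 CPM of RPFs (log2 TE of 1.77 and 1.56, FDR = 2.81e-06, edgeR). The exception was PSMB10, a subunit of the immunoproteasome, with 40.0 and 35.8 CPM of mRNA and 15.1 and 14.5 CPM of RPFs (log2 TE of -1.41 and -1.30, FDR = 3.46e-05, edgeR).

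All 8 CCT subunits lay above the median gene, by a median of 1.05 (1.05 and 1.06 in the replicates), with 7 called above by totals and 8 relative to the median gene. CCT2 was highest, with 362 and 428 CPM of mRNA and 751 and 886 CPM of RPFs, a log2 TE of 1.05 in both replicates (FDR = 0.000115, edgeR). CCT8 at 0.92, CCT5 at 0.91, CCT4 at 0.87, CCT7 at 0.71, CCT3 at 0.66 and CCT6A at 0.64 also passed. Without RNA-Seq replicate 1 these 6 no longer passed, with FDRs in edgeR from 0.00508 for CCT8 to 0.0667 for CCT3. Without RNA-Seq replicate 2 CCT3 (0.00574), CCT6A (0.0149) and CCT7 (0.00632) did not, nor did CCT3 (0.00749) and CCT6A (0.00537) without Ribo-Seq replicate 2. TCP1, with 837 and 850 CPM of mRNA and 977 and 1075 CPM of RPFs, was lowest at 0.28 and did not pass by totals (FDR = 0.0815, edgeR). It passed relative to the median gene (FDR = 0.00392, edgeR) and, by totals, with the replicate block (FDR = 0.0042, edgeR).

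TE as calculated here sets all RNA-Seq counts of a gene, with those of its untranslated regions, against RPFs. Dividing the mRNA CPM by the width given in the table and the RPF CPM by the coding length lowered the median of CCT from 1.05 to 0.53, that of the proteasome to 0.51 and that of oxidative phosphorylation to 0.84, each still above the median gene.

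This scale also allows levels to be compared between genes, here the subunits of 4 complexes, of which the ribosome holds some proteins, such as RPLP1 and RPLP2, in more copies than the rest. The 8 CCT subunits spanned 3.03-fold in mRNA per kb of width, from CCT5 at 113 to TCP1 at 344 CPM per kb, but 1.55-fold in RPFs per kb of coding length, where CCT5 was at 529 and TCP1 at 614 CPM per coding kb. The SD of the log2 levels was 0.55 for mRNA and 0.21 for RPFs. CCT5 was lowest in mRNA per kb with the greatest width of the 8 (4032 bases, against 2032 for CCT7), while in CPM not divided by length CCT2 was lower. With the table width in both assays CCT5 was the lowest in RPFs as well.

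The 14 subunits of the proteasome core particle spanned 7.90-fold in mRNA per kb and 2.84-fold in RPFs per coding kb (SD of 0.85 and 0.50). PSMA5 had the lowest mRNA level, 50.3 CPM per kb, against 398 CPM per kb for PSMB4, yet their RPF levels were 587 and 794 CPM per coding kb. The 78 ribosomal proteins spanned 67.2-fold in mRNA per kb and 18.8-fold in RPFs per coding kb (SD of 1.10 and 0.68).

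The MCM2-7 helicase, the ring that unwinds DNA at replication origins, went the other way, since its 6 subunits spanned 2.76-fold in mRNA per kb and 4.16-fold in RPFs per coding kb (SD of 0.58 and 0.76). MCM2 was lowest and MCM7 highest on both scales, at 33.9 and 93.5 CPM per kb of mRNA and 44.5 and 185 CPM per coding kb of RPFs. In each replicate alone the difference of the SDs kept its sign in all 4 complexes. The choice of length mattered, since with the table width in both assays the RPF SD minus the mRNA SD was -0.12 for CCT, 0.05 for the proteasome core, 0.03 for MCM2-7 and -0.06 for the ribosome.

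**Figure D3:**
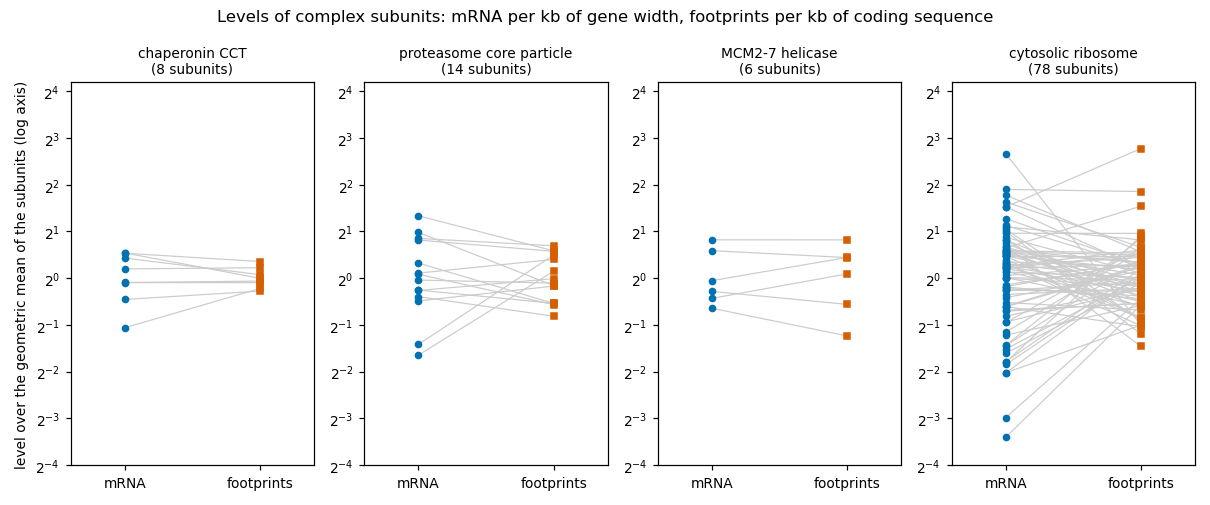
Levels of the subunits of 4 complexes, as mRNA CPM per kb of table width and RPF CPM per kb of coding length, each relative to the geometric mean of the complex in that assay on a log2 axis. Points are subunits, and their spread is narrower for RPFs in the chaperonin CCT, the proteasome core particle and the ribosome and wider in MCM2-7.

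The mRNAs of the translation machinery itself were split. The 78 cytosolic ribosomal proteins took 11.6% and 10.7% of the RNA-Seq counts and 12.2% and 11.1% of the RPFs, with a median 0.53 above the median gene (0.53 and 0.48). By totals 21 were above and 6 below, and relative to the median gene 38 above and 5 below. The median was 0.30 per coding length and 0.17 within bins of genes of like mRNA level. RPS2 was lowest, with 8036 and 7249 CPM of mRNA against 1377 and 1290 CPM of RPFs (log2 TE of -2.54 and -2.49, FDR = 1.02e-07, edgeR), and RPL38 highest, with 845 and 725 CPM of mRNA against 2205 and 1570 CPM of RPFs (log2 TE of 1.38 and 1.12, FDR = 7.85e-05, edgeR). Of the coding 29-mers of these genes a median of 78.1% also occurs in other transcripts or copies, so reads could be split or lost in counting, and their part in these values was not tested.

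TOP mRNAs start with a C and a run of pyrimidines, through which the cell couples the making of ribosomes to growth signals. The first 20 bases of the transcripts at both ends of the ribosomal protein range are shown to compare their TOP runs, with the unbroken pyrimidine run at the start in capitals. They come from GENCODE 44 transcripts on GRCh37, lie in exon 1, and apart from RPS2 and RPL38 were chosen after their values were seen. The sites are chr16:2014808-2014827 (minus strand) for RPS2, chr3:39448211-39448230 (plus) for RPSA, chr12:120638895-120638914 (minus) for RPLP0, chr6:133135708-133135727 (plus) for RPS12, chr17:72199817-72199836 (plus) for RPL38, chr20:60962159-60962178 (plus) for RPS21, chr3:197677061-197677080 (plus) for RPL35A and chr3:101405543-101405562 (minus) for RPL24.
RPS2: CTTCTTTTCCgacaaaacac
RPSA: CTTTTCCgtgctacctgcag
RPLP0: CCTTCTCTCgccaggcgtcc
RPS12: CTCTTTCCCTgccgccgccg
RPL38: CTTTTTCgtccttttccccg
RPS21: CCTTTCTCTCTCgcgcgcgg
RPL35A: CTTCTCTTaccgccatcttg
RPL24: CTTTCTTTTCgccatctttt

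The top 4 of these are from mRNAs of low TE (RPSA at a log2 TE of -1.37, RPLP0 at -1.31 and RPS12 at -1.04) and the others from mRNAs of high TE (RPS21 at 1.04, RPL35A at 1.01 and RPL24 at 0.99), and all 8 begin with C and a pyrimidine run. A run of at least 5 pyrimidines at the 5′ end was present in 60 of the 78 ribosomal protein transcripts and in 542 of 9539 kept transcripts with a leader (5.68%). Ribosomal proteins with the run had a median TE 0.47 above the median gene and the 18 without it 0.61 above. The run was scored only from the first base of the reference transcript. RPL10A and RPL9, scored as without it, hold a pyrimidine run a few bases further on. The 18 are therefore not shown to lack the TOP motif. The 482 other genes with the run had a median 0.02 above the median gene.

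Elongation factors and further TOP mRNAs, 17 genes of which none had sequence of its own, had a median 0.41 above the median gene (0.30 and 0.50), with 2 above and 4 below by totals and 6 above and 4 below relative to the median gene. PABPC1, the cytoplasmic poly(A)-binding protein, was lowest, with 1333 and 1249 CPM of mRNA and 246 and 400 CPM of RPFs (log2 TE of -2.44 and -1.64, FDR = 9.54e-06, edgeR). EIF4B, an initiation factor that aids the helicase eIF4A, was at -1.24, TPT1 at -1.07 and EEF1G, a subunit of the exchange factor of eEF1A, at -0.95, and all 3 passed. NPM1, a nucleolar chaperone, was highest at 0.57 and passed, as did RACK1, a protein of the small ribosomal subunit, at 0.54. Without RNA-Seq replicate 1 or 2 neither passed (FDRs in edgeR of 0.0704 and 0.0142 for NPM1 and 0.0601 and 0.0489 for RACK1), nor did NPM1 without Ribo-Seq replicate 2 (0.0144).

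EEF1A1, which brings aminoacyl-tRNA to the ribosome and had the most RNA-Seq counts, lay at -0.29 (FDR = 0.0481, edgeR) and EEF2, the translocation factor, at -0.11 (FDR = 0.548, edgeR). EEF1B2 at 0.45, EEF1D, BTF3 at 0.48, NACA, NAP1L1, EIF3E, EIF3F, EIF3H and HNRNPA1 at 0.20 did not pass by totals either. Per coding length the median of this group was -0.11, below the median gene, and within bins of mRNA level it was 0.11.

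Among the other factors of translation, the 40 initiation factors had a median 0.36 above the median gene, with 7 above and 7 below by totals and 13 above and 4 below relative to the median gene. EIF4A3, the RNA helicase of the exon junction complex, was highest at a log2 TE of 1.06 and EIF4G2, a relative of eIF4G that does not bind the cap-binding protein eIF4E, lowest at -1.42. Aminoacyl-tRNA synthetases (35 genes, median 0.43) ran from VARS2 at -1.17 to YARS2 at 0.90, both mitochondrial enzymes. Ribosome biogenesis factors (63 genes, median 0.35) ran from TSR3 at -1.24 to NOL9, an RNA kinase, at 1.86, and DDX and DHX helicases (47 genes, median 0.32) from DDX41 at -0.99 to DDX19B at 2.05. Per coding length the median of the initiation factors was 0.21, and the last 3 medians were below the median gene, at -0.18, -0.15 and -0.24.

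Among the groups of regulators of gene expression, homeobox, SOX, FOX and KLF factors had the lowest median, though per coding length that of chromatin modifiers was lower. Of 63 kept members, transcription factors many of which set cell identity, 50 did not lie above the median gene, the median was 0.56 below it (-0.65 and -0.68 in the replicates), 0 were called above and 35 below by totals, and 0 above and 31 below relative to the median gene. The lowest was FOXM1, a driver of mitotic genes, with 347 and 318 CPM of mRNA and 42.2 and 42 CPM of RPFs (log2 TE of -3.04 and -2.92, FDR = 1.49e-07, edgeR). The RPF libraries were about even and both far below the RNA libraries. FOXI3 was highest at 0.67 (FDR = 0.067, edgeR), which did not pass, and SOX12 at -2.63 and PBX3 at -2.62 were chosen after their values were seen. An upstream ATG was present in 66.7% of these transcripts, against 37.6% of all with a leader. Per coding length the median was -0.37.

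Chromatin modifiers and remodellers (78 genes) had a median 0.46 below the median gene (-0.48 and -0.31), with 3 above and 38 below by totals and 6 above and 27 below relative to the median gene. They ran from SMARCD3, a subunit of the SWI/SNF remodeller, at -2.38 to SMARCA2, an ATPase of the same complex, at 1.45. SMARCA2 had 25.2 and 25.7 CPM of mRNA and 72.9 and 66.4 CPM of RPFs (FDR = 3.5e-06, edgeR). Members of 1 complex thus lay at both ends. Per coding length the median of the group was -0.91.

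Ubiquitin-conjugating enzymes and USP proteases (72 genes) had a median 0.32 below the median gene, with 1 above and 34 below by totals and 4 above and 20 below relative to it, from USP12 at -2.80 to UBE2T, of the Fanconi anaemia pathway, at 0.92. Their median was -0.062 per coding length and -0.18 for the 31 with sequence of their own. The 224 kept ZNF zinc finger genes had a median 0.23 below the median gene (-0.27 and -0.14). By totals 26 were above and 78 below, and relative to the median gene 34 above and 52 below. By totals these shares were near those of all genes. Their range was wide, from ZNF358 at -2.69 to ZNF669 at 2.32.

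Immediate-early and short-lived mRNAs, 20 genes, were near the median gene (-0.08), with 0 above and 8 below by totals and 2 above and 7 below relative to it. BTG2, an antiproliferative factor, was lowest at -1.86 and CTGF, a matricellular protein, highest at 0.65 (FDR = 0.116, edgeR), which did not pass. MYC at 0.02 and JUN at -0.07, transcription factors of growth that were chosen after their values were seen, lay between them. The median was 0.088 per coding length, -0.057 for the 16 with sequence of their own and -0.28 within bins of mRNA level.

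Sets of mRNAs with textbook translational control were described member by member. In unstressed cells, upstream open reading frames (uORFs) hold back the mRNAs of the integrated stress response, which eIF2 phosphorylation releases. Of 10 kept genes of this kind (DDIT3 was not kept), 9 lay below the median gene, the median was 1.01 lower (-0.90 and -1.21 in the replicates), and 1 was above and 8 below by totals and 1 above and 7 below relative to the median gene. An upstream ATG was present in 9 of the 10 transcripts. Per coding length the median was -0.29.

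ATF4, the main transcription factor of this response, had 1024 and 923 CPM of mRNA and 193 and 178 CPM of RPFs, a log2 TE of -2.41 and -2.38 (FDR = 3.5e-07, edgeR). SLC35A4 had 213 and 204 CPM of mRNA and 44.2 and 40.5 CPM of RPFs (log2 TE of -2.30, FDR = 5.59e-07, edgeR), and its leader holds 11 upstream ATGs. PPP1R15A, the inducible phosphatase subunit that reverses eIF2 phosphorylation, was at 29.8 and 29.7 CPM of mRNA and 7.81 and 7.96 CPM of RPFs (log2 TE of -1.92, FDR = 6.54e-06, edgeR). In all 3 genes every RPF library was below every RNA library. Of the coding 29-mers of ATF4 65% also occur elsewhere, and their part in its value was not tested.

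CEBPG at -1.81, MIEF1 at -1.58, ATF5 at -0.97, IBTK at -0.87 and PPP1R15B, the constitutive partner of PPP1R15A, at -0.71 were also below, and CEBPB at -0.36 did not pass (FDR = 0.0702, edgeR). PPP1R15B did not pass without RNA-Seq replicate 1 (FDR = 0.0116, edgeR) or 2 (FDR = 0.00993, edgeR), and ATF5 not without Ribo-Seq replicate 2 (FDR = 0.0121, edgeR). The exception was IFRD1, whose mRNA carries an upstream open reading frame too: it had 89.9 and 88.4 CPM of mRNA but 429 and 189 CPM of RPFs, a log2 TE of 2.25 and 1.10 (FDR = 0.000271, edgeR). It had 824 and 833 RPFs in libraries of unequal depth, and its replicates lay further apart than those of the other members.

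Some of the uORFs that fit within 30 bases are shown for members below the median gene, to set them beside their TE, with the start and stop codons in capitals. They were read from GENCODE 44 transcripts on GRCh37, in the strand of the mRNA, and a uORF found by its letters is not thereby shown to be translated. The positions are chr22:39916591-39916596 and chr22:39916653-39916664 for both ATF4 uORFs (plus strand, exon 1, starting at bases 25 and 87 of a leader of 282 nt), chr19:33870054-33870059 for CEBPG (plus, exon 2), chr22:39900521-39900529 for MIEF1 (plus), chr19:50432531-50432542 for ATF5 (plus), chr6:82950417-82950440 for IBTK (minus, exon 2), chr1:204380792-204380818 for PPP1R15B (minus) and chr6:111195999-111196019 for AMD1 (plus, from base 12 of a leader of 321 nt), a gene of polyamine synthesis described next.
ATF4 at base 25: ATGTAG
ATF4 at base 87: ATGgcgtatTAG
CEBPG: ATGTGA
MIEF1: ATGtatTAA
ATF5: ATGgctctgTAG
IBTK: ATGaagaacttgtatttgataTGA
PPP1R15B: ATGgtgttgaagcgtcgagccgacTAG
AMD1: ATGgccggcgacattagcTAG

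A further upstream ATG of ATF4, at base 186 of the leader, has no stop codon in frame before the coding region.

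Polyamines (putrescine, spermidine and spermine) feed back on the translation of their own enzymes through uORFs and frameshifting. Of the 10 genes of their metabolism, 9 lay below the median gene, the median was 0.83 lower (-0.67 and -0.95), and 0 were above and 7 below by totals and 0 above and 6 below relative to the median gene. AMD1, S-adenosylmethionine decarboxylase, had the lowest TE, with 443 and 406 CPM of mRNA and 125 and 66.4 CPM of RPFs (log2 TE of -1.82 and -2.61, FDR = 1.71e-05, edgeR). Its uORF, shown above, has 6 codons before the stop.

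OAZ1, the antizyme of ornithine decarboxylase whose synthesis needs a frameshift, had 939 and 907 CPM of mRNA and 282 and 252 CPM of RPFs (log2 TE of -1.79, FDR = 1.67e-06, edgeR). SMOX at -1.34, AZIN1, the antizyme inhibitor, at -1.13, OAZ2 at -1.11, ODC1, ornithine decarboxylase itself, at -1.07 and SRM, spermidine synthase, at -0.98 were also below, of which SMOX did not pass without Ribo-Seq replicate 2 (FDR = 0.0253, edgeR). SAT1 at -0.82 (FDR = 0.0054, edgeR), SMS, spermine synthase, at -0.39 (FDR = 0.0269, edgeR) and PAOX at 0.62 (FDR = 0.169, edgeR) did not pass.

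Selenoproteins insert selenocysteine at an in-frame UGA, where ribosomes can also stop. Of the 17 kept members 0 were above and 8 below by totals and 0 above and 7 below relative to the median gene, and the median was 0.53 lower (-0.44 and -0.32). SEPN1 was lowest, with 269 and 241 CPM of mRNA and 54.6 and 44.6 CPM of RPFs (log2 TE of -2.37, FDR = 7.25e-07, edgeR). SEPW1 at -2.10, SEPHS2, which makes the selenium donor, at -2.01, and the peroxidases GPX4 at -1.66 and GPX1 at -1.05 were below as well, as was SELT at -1.20. Of the coding 29-mers of GPX1 60.4% and of SELT 52.2% also occur elsewhere, and their part was not tested. C11orf31 and MSRB1 also passed below by totals, MSRB1 not without Ribo-Seq replicate 2 (FDR = 0.00625, edgeR).

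VIMP at 0.12 and TXNRD2, the mitochondrial thioredoxin reductase, at 0.12 were highest and did not pass, and SELK, SELM, SELO, SEP15, EPT1, TXNRD1 and TXNRD3 did not pass either. Among the 9 selenoprotein genes with sequence of their own, defined with the shared sequences below, the median was -0.0097 relative to the median gene, and per coding length that of all members was -0.13.

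Iron-responsive elements in the leader hold back ferritin mRNAs when iron is scarce, while those after the coding region of TFRC, the transferrin receptor, protect it from decay. The ferritin chains were low: FTH1 had 1127 and 1003 CPM of mRNA and 451 and 349 CPM of RPFs (log2 TE of -1.42, FDR = 1.9e-05, edgeR), and FTL 692 and 639 CPM of mRNA and 390 and 286 CPM of RPFs (log2 TE of -0.99, FDR = 0.000373, edgeR). Of the coding 29-mers of FTH1 90.8% and of FTL 60.8% also occur elsewhere, and the part of split or lost reads in these values was not tested. EPAS1, the hypoxia-inducible factor HIF-2α, was at -1.20 and passed. TFRC was high, with 208 and 215 CPM of mRNA and 342 and 347 CPM of RPFs (log2 TE of 0.71, FDR = 0.000946, edgeR), and did not pass without RNA-Seq replicate 1 (FDR = 0.03, edgeR) or 2 (FDR = 0.0166, edgeR). SLC11A2, an iron transporter, at -0.15 did not pass, and of the 6 kept genes of this group 1 was above and 3 below by either scaling. The median of the group was -0.38, which was -1.004 per coding length and 0.11 for the 3 with sequence of their own.

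**Figure D4:**
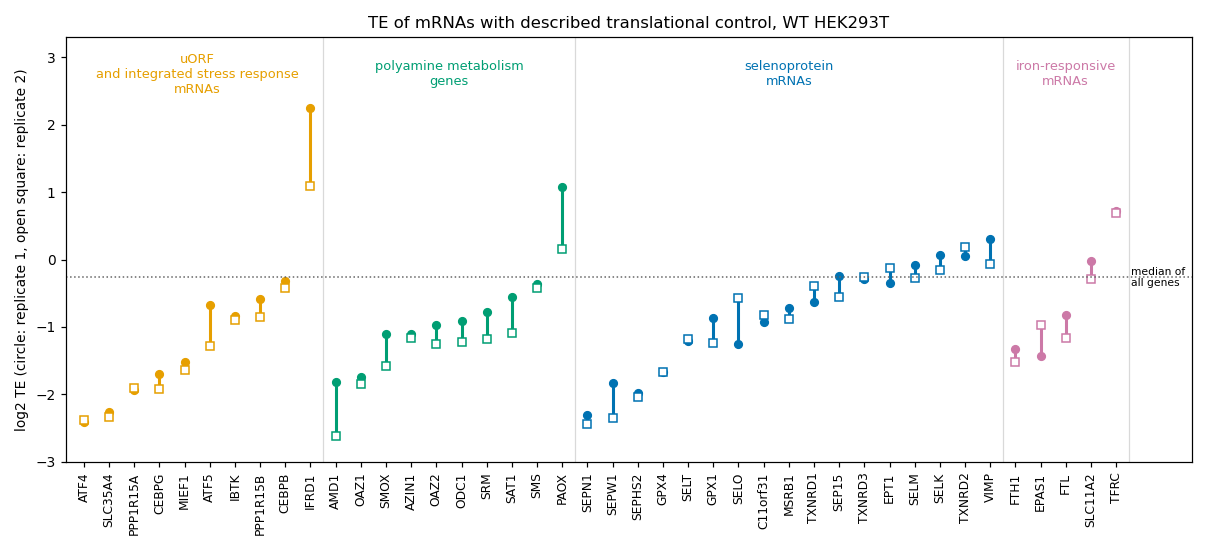
Log2 TE of the genes described for the uORF and integrated stress response, polyamine, selenoprotein and iron groups, with replicate 1 as circles, replicate 2 as open squares and the median of all kept genes as a dotted line. ATF4, SLC35A4, AMD1, SEPN1 and FTH1 lie below the line in both replicates, and IFRD1 and TFRC above it.

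Over all genes with a leader, TE was lower with each of the leader features that textbook scanning makes relevant. The medians here are relative to that of all genes with a leader. The 5951 genes without an upstream ATG had a median 0.17 above it, and 25.4% of them were called above and 15.5% below relative to the median gene. With 1 upstream ATG (1773 genes) the median was -0.20, with 2 (825 genes) -0.42, with 3 (391 genes) -0.30 and with at least 4 (599 genes) -0.42, where 8.8% were above and 38.7% below.

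The GC content of the leader showed a wider range. Its reference was the median of all genes with a leader of at least 20 bases. Under 50% GC (471 genes) the median was 0.10 above that reference (0.025 and 0.20 in the replicates), lower than in the next bin. From there it went from 0.28 at 50 to 55% GC (605 genes) to 0.13 at 65 to 70% (1641 genes), -0.31 at 75 to 80% (1317 genes) and -0.91 at 85% and more (207 genes). Genes without an upstream ATG were set against their own median, so their levels cannot be compared with those above. Among them the median went from 0.45 under 50% and 0.40 at 50 to 55% to -0.90 at 85% and more. It was thus also lower at high GC content without upstream ATGs. Relative to all genes with a leader, leaders under 50 nt (1842 genes) had a median of 0.21 and those of at least 400 nt (997 genes) of -0.38. The base 3 before the start codon, A or G in the Kozak context, gave medians of 0.09 for A (4445 genes), -0.03 for G (3936 genes), -0.17 for T (401 genes) and -0.27 for C (750 genes).

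**Figure D5:**
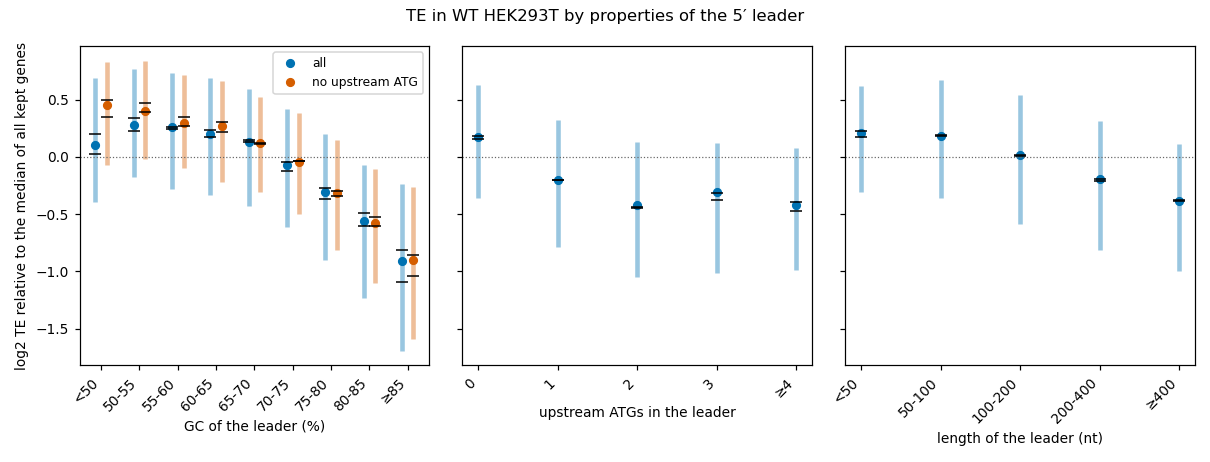
Median log2 TE (vertical axis) by leader GC content (percent), number of upstream ATGs and leader length (nt). Each value is relative to the median of its own series of genes, not to that of all kept genes. Dots are medians and bars the range between the quartiles in each bin, with short black dashes for the replicates, and from 50 to 55% GC upwards the medians are lower towards GC-rich leaders, also among genes without an upstream ATG.

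As a description across 9539 genes, which share libraries and base composition and are not independent, the Spearman correlation of TE was -0.305 with leader GC (9534 genes, -0.260 and -0.338 in the replicates), -0.274 with the number of upstream ATGs, -0.240 with leader length, -0.169 with the length of the 3′ UTR and -0.310 with the GC content of the coding region. The last differed between the replicates (-0.232 and -0.375). With the coding length it was -0.048. Among the 4859 genes with sequence of their own the values for leader GC and upstream ATGs were -0.293 and -0.285.

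The lowest TE of all coding genes had such leaders in part. SLC25A23, a mitochondrial ATP-Mg/phosphate carrier, had 191 and 179 CPM of mRNA and 9.89 and 5.23 CPM of RPFs (log2 TE of -4.27 and -5.10, FDR = 7.71e-08, edgeR), with a leader of 81.7% GC and 0 upstream ATGs. IRAK1, a kinase of Toll-like receptor signalling, had 679 and 696 CPM of mRNA and 52.6 and 44.3 CPM of RPFs (log2 TE of -3.83, FDR = 3.18e-08, edgeR), with a leader of 85.6% GC. C6orf62 at -4.38 has 5 upstream ATGs, while EVL, an actin regulator at -3.41, has a leader of 58.2% GC and 0 upstream ATGs.

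The other low genes were TUG1 at -4.27, ELK1, a transcription factor, at -3.84, LRP3 at -3.79, RHOQ at -3.59 (76.7% of its coding 29-mers also occur elsewhere, their part not tested), C12orf75 at -3.59 and TSPAN17 at -3.41, all below 0 in both replicates. Of these, TUG1 is a long noncoding RNA that the annotation used here lists as coding. Among genes with sequence of their own, the 100 of lowest TE had a median leader of 216.5 nt and 77.8% GC, and 59% held an upstream ATG. All 4855 such genes had medians of 130 nt and 68.1% and a share of 37.8%, and the 100 of highest TE 115 nt, 63.7% and 22%.

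The largest ratios of RPFs to mRNA came from replication-dependent histones, whose mRNAs end in a stem-loop and lack the poly(A) tail through which the RNA-Seq kit of the study takes up mRNA. All 13 kept genes were called above by both scalings, and the median was 9.54 above the median gene (9.44 and 9.74). They took 0.012% and 0.011% of the RNA-Seq counts and 2.12% and 1.93% of the RPFs. HIST1H2BO had 0.419 and 0.444 CPM of mRNA and 1319 and 1270 CPM of RPFs (log2 TE of 11.62 and 11.48, FDR = 8.56e-11, edgeR). How much of these mRNAs the RNA-Seq libraries missed was not tested.

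The histone genes HIST1H3H at 10.58, HIST1H2AG at 10.55, HIST1H2BJ at 10.35, HIST3H2BB at 10.19, HIST1H2AC at 9.56, HIST2H2BE at 9.27 and HIST1H2BD at 8.45 were also among the 10 coding genes of highest ratio. The lowest member was HIST1H3E at 3.16, with 0.838 and 0.770 CPM of mRNA and 7.29 and 7.05 CPM of RPFs. HIST1H2BK at 5.11, chosen after its values were seen, had 82.2 and 74.8 CPM of mRNA. The 10 variant and linker histones, whose mRNAs are mostly polyadenylated, were near the other genes (median 0.19, and 0.52 per coding length), from H1F0, a linker histone, at -1.02 to H2AFX, the variant phosphorylated at DNA breaks, at 1.35.

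The other 2 genes among these 10 were SHF and CTC1, each with tRNA genes in its span. SHF, an adaptor protein gene at chr15:45459412-45493373 (GRCh37) with 2 histidine tRNA genes in its span, had 4.13 and 4.92 CPM of mRNA and 10535 and 3781 CPM of RPFs (log2 TE of 11.32 and 9.59, FDR = 6.57e-08, edgeR). CTC1, of the telomere CST complex at chr17:8128133-8151376 with 3 tRNA genes, had 21.2 and 20.7 CPM of mRNA and 10208 and 4185 CPM of RPFs (log2 TE of 8.91 and 7.66, FDR = 7.18e-08, edgeR). In both, replicate 1 held more RPFs than replicate 2 in counts, 20244 against 16636 for SHF and 19616 against 18414 for CTC1, although its library was the shallower. The part of tRNA fragments was not tested. Over the 21 kept genes with a tRNA gene in their span the median was 0.32 above the median gene, and 5 were above and 4 below by totals.

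Other high values came from genes with near copies. To describe this, each gene was given the share of its coding 29-mers (a footprint's length) found in transcripts of other genes, and 4903 kept genes without such sequence, without coding copies and without small RNA genes in their exons or tRNA genes in their span were counted as having sequence of their own. The 565 genes with over 50% shared 29-mers had a median 0.48 above the median gene, with 33.8% above and 24.2% below by totals, and the genes with sequence of their own a median 0.09 below it, with 7.49% above and 34.8% below.

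Tubulins and actins, the subunits of the cytoskeleton, had a median 2.19 above the median gene (2.18 and 2.23), with 13 of 17 genes above and 0 below by totals and 16 above and 0 below relative to the median gene. A median of 48.8% of their coding 29-mers was shared, and none had sequence of its own. TUBA1A was highest, with 87.6 and 112 CPM of mRNA and 2778 and 3078 CPM of RPFs (log2 TE of 4.99 and 4.79, FDR = 6.24e-09, edgeR), and TUBG1, the nucleator of microtubules, lowest at -0.10 (FDR = 0.522, edgeR). TUBA8 at 2.97 and TUBA4A at 1.88, chosen after their values were seen, have few shared 29-mers (3.64% and 4.18%).

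Of the 112 kept pseudogenes, copies of genes that as a rule encode no protein, 65 were above and 15 below by totals and 67 above and 11 below relative to the median gene, with a median 1.42 above it (1.29 and 1.45). Of their 29-mers a median of 71.6% was shared, and the 5 pseudogenes with sequence of their own had a median of -0.31. HNRNPA1L2, a copy of HNRNPA1 with 75.6% shared 29-mers, had 15.5 and 16.6 CPM of mRNA and 859 and 1095 CPM of RPFs (log2 TE of 5.92, FDR = 2.4e-09, edgeR), while HNRNPA1 itself was at 0.20. H3F3AP4, the pseudogene with the most RPFs, had 33727 and 28083 mRNA counts and 3866 and 8935 RPFs, against 33732, 28088, 3867 and 8936 for the histone gene H3F3A, so the counts of both hold nearly the same reads. RPSAP9 had a log2 TE of 6.98 and PKD1P1 of -3.61, the extremes of the group apart from the histone copy HIST2H2BC.

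Some genes with sequence of their own also had high TE, all chosen after their values were seen. DENND1B, an exchange factor of RAB35, had 19.7 and 18.2 CPM of mRNA and 100.4 and 90.9 CPM of RPFs (log2 TE of 2.35 and 2.32, FDR = 1.93e-07, edgeR), the highest of the coding genes among them. TUBD1, a tubulin gene outside the group of tubulins and actins, was at 2.19, with replicates apart at 2.88 and 1.51. HELB at 2.15 and HELLS at 1.92 encode helicases, and the long coding regions of LRP1B at 1.63, SYNE2 at 1.58, AHNAK at 1.52 and MDN1 at 1.42 were also above.

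Noncoding transcripts were spread over the whole range. A group of 33 kept long noncoding RNAs, picked by the pattern of their names, had a median 0.20 above the median gene, and the 77 kept genes that the annotation lists as lncRNA had one 0.16 above it. Of the 33, 7 were above and 6 below by totals and 10 above and 6 below relative to it. NORAD, which binds Pumilio proteins, was the lowest of all genes, with 421 and 379 CPM of RNA and 20.8 and 9.55 CPM of RPFs (log2 TE of -4.34 and -5.31, FDR = 1.81e-07, edgeR). Of its 29-mers 53.5% also occur elsewhere, and the part of split or lost reads was not tested. LINC00649 was the highest at 3.27, and LINC01296 had the most RPFs, at a log2 TE of 2.00.

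Hosts of snoRNAs, whose introns hold the small RNAs that guide rRNA modification, had a median 0.43 below the median gene (-0.26 and -0.58), with 1 of 23 above and 11 below by totals and 2 above and 8 below relative to it. They ran from SNHG12 at -2.03 to SNHG25 at 3.41, which had 1.93 and 1.30 CPM of RNA and 19.3 and 14.8 CPM of RPFs. GAS5 at -1.44 and SNHG1 at -1.95, chosen after their values were seen, were well below 0. The 8 hosts with sequence of their own had a median of 0.0030 relative to the median gene.

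Factors of RNA processing lay near or above the median gene. The snRNP and hnRNP proteins (54 genes) had a median 0.54 above it, with 12 above and 4 below by totals and 20 above and 1 below relative to the median gene, from HNRNPUL1 at -1.55 to HNRNPA1L2. Their median was 0.32 per coding length and 0.16 for the 13 with sequence of their own. The 13 SR splicing factors had a median of 0.12, which was 1.00 per coding length and 0.54 for the 5 with sequence of their own, but -0.017 in replicate 1 alone. Of them, 2 were above and 3 below by totals and 4 above and 0 below relative to the median gene. TRA2A at 0.78 and SRSF7 at 0.57 were above, SRSF8 at -0.78, SRSF2 at -0.77 and SRSF11 at -0.70 below, and SRSF1 at -0.44, SRSF3 at 0.53, SRSF4, SRSF5, SRSF6, SRSF9, SRSF10 and TRA2B did not pass by totals. Without RNA-Seq replicate 1 none of these 5 calls but that of SRSF8 passed (FDRs in edgeR of 0.00784 for TRA2A, 0.0814 for SRSF7, 0.015 for SRSF2 and 0.0373 for SRSF11), and without RNA-Seq replicate 2 TRA2A (0.00755), SRSF7 (0.0592) and SRSF11 (0.00757) did not. SR factors are known to regulate their own mRNAs by splicing in exons with early stop codons.

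Proteins of DNA replication (45 genes) had a median 0.49 above the median gene, with 11 above and 3 below by totals and 19 above and 2 below relative to it, from POLE3 at -1.80 to RPA3, the small subunit of the single-strand binding protein RPA, at 1.69. Per coding length their median was 0.14. Cyclins, CDKs and CDC genes (50 genes) had a median of -0.15, with 6 above and 23 below by totals and 10 above and 17 below relative to the median gene. They ran from CDK16 at -2.62 to the CDK inhibitor CDKN2B, and per coding length their median was 0.026. Kinesins and CEP proteins (57 genes) had a median of 0.16 (-0.012 and 0.21 in the replicates), from KIF3B, a motor of ciliary transport, at -2.26 to CEP97. Per coding length their median was -0.42.

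Secretory and membrane proteins were mixed. The ER translocon, signal peptidase and related genes (28 genes) had a median 0.42 above the median gene, with 5 above and 1 below by totals and 11 above and 1 below relative to it, from SRPRA, the receptor of the signal recognition particle, at -0.86 to SEC61G, a subunit of the channel, at 1.37. Per coding length their median was 0.71. Matrix proteins and integrins (40 genes) had a median of 0.49 (0.58 and 0.37), from ITGB1BP1 at -1.78 to FBN2, a fibrillin, at 1.43, and per coding length their median was -0.0021. Solute carriers (166 genes) had a median of -0.16, with 12 above and 65 below by totals and 24 above and 35 below relative to the median gene. The latter shares were 14.5% and 21.1%, against 20.9% and 22.6% of all genes, so the share below was near that of all genes. Solute carriers ran from SLC25A23 to SLC43A2, an amino acid transporter, at 1.78, and per coding length their median was -0.025.

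Enzymes of sterol and fatty acid synthesis (27 genes) had a median of 0.49, with 5 above and 5 below by totals and 11 above and 1 below relative to the median gene. Heat-shock and DNAJ chaperones (52 genes) had a median of 0.30, from DNAJC4 to HSPA2, a testis-enriched HSP70, at 3.58, with 1.87 and 2.46 CPM of mRNA and 22.4 and 29.5 CPM of RPFs. The 15 chaperones with sequence of their own had a median of -0.22. The RAB, COP and SEC trafficking genes (58 genes, median 0.06), from RAB31 at -2.66 to RAB27A, and the RNA polymerase II, Mediator and TAF genes (64 genes, median 0.04), from MED9 at -2.34 to MED18, had medians near the median gene. Per coding length these medians were 0.49 and 0.073.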

How the data were processed

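RNA-Seq (TruSeq RNA kit, total RNA) and Ribo-Seq libraries were made by the authors from WT HEK293T cells. The authors removed reads of rRNA with Bowtie2, mapped the rest to hg19 with TopHat2, kept footprints of the lengths with the clearest periodicity, and deposited raw counts per gene (QuasR) with a width. The genes of the count table are those past the paper's FPKM cutoff. The authors' tables of fold changes, p-values and TE (edgeR, RiboDiff) compare genotypes and were not used. RNA-Seq totals exceed the mapped reads stated, so both reads of a pair may have been counted.

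Counts of the 4 WT libraries were divided by their totals and multiplied by 1e+06 (CPM). The assay term was tested in edgeR 4.0.16 (R 4.3.3) by the quasi-likelihood test over 10105 genes, with Benjamini-Hochberg adjusted p-values and an FDR under 0.005, and counted over the 9835 genes with at least 10 counts in each. The biological coefficient of variation was 9.72%. Tested on simulated data for this comparison (10105 genes, 200 changed), the fit recovered 83% of genes changed by 1 and 99% of those changed by 2 on the log2 scale, with 0 false calls. The simulation gave both assays the same composition, balanced changes and 1 spread for all genes. It therefore does not measure false calls in the real comparison. Leaders, coding regions and 29-mers came from GENCODE 44 on GRCh37, matched by symbol for 10030 genes, 478 of them by an older one. Counting gives no molecular identifiers.

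The genes named were the 10 highest and 10 lowest coding genes past the threshold and on 1 side of 0 in both replicates, the highest and lowest member of each group, every kept member of the groups of textbook control, CCT, TOP mRNAs and SR factors, and the noncoding RNA and pseudogene with the most RPFs. A few genes under this rule are not reported here. Members and lists were chosen with earlier results of these data known. Alternatives were other scalings, DESeq2 1.42.0, filters, thresholds, a replicate block, thinned or halved RNA-Seq counts, libraries left out, coding length, and, chosen after seeing the data, leader features and genes with sequence of their own.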

Additional observations from a re-analysis of the deposited data

How the results depend on the processing

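Numbers of called genes followed scaling and threshold. Against 1178 genes above and 3196 below, TMM scaling gave 1830 above and 2311 below, RLE scaling 2128 and 2217, median centring 2053 and 2219, an FDR under 0.05 1941 and 4240, an absolute log2 TE of at least 1 485 and 2005, and at least 50 counts 1012 and 1689. DESeq2 gave 1153 and 3019, thinned RNA-Seq counts 1017 and 2913, halved ones 1180 and 3208, and no filter 1185 and 3262. Leaving out 1 library gave 784 to 1447 above and 2662 to 3387 below, the lowest count above being that without RNA-Seq replicate 1, where the lone sample is assumed to vary like the others. The replicate block gave 1838 above and 4007 below and called all 1178 and 3196 as well. The differences between replicates correlated by 0.373 between the assays over genes, and the labels do not tie the numbers to cultures. Of the 163 named genes, none that passed in either fit changed direction under TMM, the block, DESeq2 or a left-out library. The block added 16 calls among them and lost none. The added ones were BTF3, EEF1A1, EEF1B2, EEF1D, EIF3E, PFKL, SAT1, SELO, SEP15, SMS, SRSF1, SRSF3, SRSF4, TCP1, TRA2B and TXNRD1. TMM added 5 (BTF3, EEF1B2, EEF1D, EIF3E and SRSF3) and lost 4 (ATP5SL, PPP1R15B, SRSF2 and SRSF11), and DESeq2 added SRSF3.

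The medians of groups moved as follows, each relative to the median of the genes that the alternative compares. For genes with at least 50 counts this reference lay 0.17 above the median of all kept genes, and for genes with sequence of their own at -0.092, so part of each change is that of the reference. For CCT (1.05) they were 0.88 with at least 50 counts, 0.53 per coding length, 1.06 against coding genes, 0.69 within bins of mRNA level and 1.21 for genes with sequence of their own. For homeobox, SOX, FOX and KLF factors (-0.56) they were -0.68 to -0.65 in single replicates, -0.47 with at least 50 counts, -0.76 without a filter, -0.37 per coding length, -0.84 within bins and -0.47 for own sequence. Histones (9.54) were at 8.54 with at least 50 counts and 8.77 within bins, and tubulins and actins (2.19) at 2.18 to 2.23 in single replicates, 2.00 and, per coding length, 2.03. The uORF group (-1.01) was at -1.49 with at least 50 counts, -1.31 without a filter and -0.29 per coding length. Selenoproteins (-0.53) were at -0.44 to -0.32 in single replicates, -0.38 without a filter, -0.13 per coding length, -0.33 within bins and 0.083 for own sequence. Pseudogenes (1.42) were at 1.29 to 1.45 in single replicates, 2.01 with at least 50 counts, 1.10 within bins and -0.22 for own sequence.

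On these references the sign also changed per coding length for TOP mRNAs (-0.11), aminoacyl-tRNA synthetases (-0.18), ribosome biogenesis (-0.15), matrix (-0.0021), immediate-early genes (0.088), DDX and DHX helicases (-0.24), cyclins (0.026) and kinesins (-0.42), and for own sequence for chaperones (-0.13), immediate-early genes (0.036), iron (0.20) and snoRNA hosts (0.10). It changed with at least 50 counts for trafficking (-0.055), RNA polymerase II (-0.13) and SR factors (-0.057), within bins for SR factors (-0.056), and in single replicates SR factors were at -0.017 to 0.026 and kinesins at -0.012 to 0.21, both lower without replicate 2. With the table width in both assays, the RPF SD minus the mRNA SD was -0.12 for CCT, 0.051 for the proteasome core, 0.030 for MCM2-7 and -0.062 for the ribosome, against -0.34, -0.36, 0.18 and -0.41. Against the median of all kept genes, added after seeing the data, members with sequence of their own were at 1.12 for CCT, -0.0097 for selenoproteins, -0.31 for pseudogenes, -0.22 for chaperones, -0.057 for immediate-early genes, 0.11 for iron, 0.0030 for snoRNA hosts and -0.016 for trafficking. On the same reference with at least 50 counts, trafficking was at 0.12, RNA polymerase II at 0.044 and SR factors at 0.12. Cyclins, at 0.081, and immediate-early genes, at 0.022, changed sign there. The cause of the other changes was not tested. Ribo-Seq depth limits the genes with few RPFs.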
